A study of Mus musculus with 8 samples.

Results

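The 10 genes described here encode the machinery that loads peptides onto MHC class I molecules, and they were chosen by function. They are the classical heavy chains H2-K1 and H2-D1, the light chain B2m, the peptide transporter subunits Tap1 and Tap2, tapasin (Tapbp), the immunoproteasome catalytic subunits Psmb8, Psmb9 and Psmb10, and the transactivator Nlrc5. All 10 were found among the 54532 genes of the count table, and all 10 passed the filter on low counts, as did 18511 genes in total. The study built an antibody-drug conjugate that carries a cytotoxic agent together with an immune agonist, and it sequenced RNA from whole tumors of 8 mice.

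Every mouse was a female BALB/cJ that received 4T1-FLuc cells under the skin at 6 weeks of age. 4T1-FLuc is a mouse triple-negative breast cancer line with a firefly luciferase gene, so all tumors came from 1 cell line growing in a strain of its own tissue type with an intact immune system. The control group of 4 mice received saline, which the treatment label spells PBS control. The treated group of 4 mice received mAb-DXd/IMQ, labeled HumCD276-Dxd/IMQ, a humanized antibody to CD276 that carries the topoisomerase inhibitor DXd and the imidazoquinoline IMQ, an agonist of Toll-like receptors. These mice had 5 intravenous courses of 16 mg/kg, spaced 4 days apart, and tumors were collected at the end of the study. Total counts were 49398150, 45019927, 56388627 and 69582375 in saline tumors 1 to 4, and 51625237, 46196237, 42965317 and 34591912 in mAb-DXd/IMQ tumors 1 to 4.

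MHC class I molecules display fragments of a cell's own proteins to CD8 T cells. The immunoproteasome cuts proteins into peptides, the TAP transporter carries these into the endoplasmic reticulum, and tapasin holds a heavy chain and B2m beside the transporter until a peptide fits. Interferons raise nearly all of these genes, and NLRC5 acts on their promoters without binding DNA itself. Tumor cells often lower this pathway and so become less visible to T cells.

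The tumors held RNA of the labeled epithelial line and of other cells. Krt18, a keratin of simple epithelia and the most abundant gene of the 4T1 epithelium list, lay between 590 and 971 CPM, and the leukocyte gene Ptprc lay between 119 and 193 CPM. CPM are counts scaled to the same total in each tumor, with TMM factors applied. Since leukocytes and tumor cells both make class I molecules, a change in the number of cells of a type and a change in RNA per cell cannot be told apart in any value below. BALB/c mice carry the d haplotype of the H2 complex, whereas the reference genes come from C57BL/6 with the b haplotype. H2-Ea-ps, listed as an unprocessed pseudogene in that reference, had 15523 to 66515 counts in these tumors. The heavy chain genes are close relatives and their alleles differ between the haplotypes, so counts of H2-K1, H2-D1 and the other H2 heavy chains are uncertain.

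None of the 10 members passed the thresholds between mAb-DXd/IMQ and saline tumors, an FDR below 0.05 with an absolute log2 fold change above 0.58 in edgeR's quasi-likelihood test, against 1.06% of all tested genes (197 of 18511, with 0.546% higher and 0.519% lower). At an FDR below 0.05 and any fold change, the counts were 0 of 10 members and 1.33% of all tested genes. No member reached an unadjusted p below 0.05 in that test, in DESeq2 or in limma-voom, and without saline tumor 1 H2-K1 and Tap2 did, at edgeR adjusted p = 0.190 and 0.185. In the fit to all 8 tumors 18.9% of all tested genes had an unadjusted p below 0.05 in edgeR. The 2 groups overlapped for all 10 members, while they did not overlap for 13.1% of all tested genes. The median log2 fold change was 0.16 over the members and 0.02 over all tested genes. It was above 0 for 9 of 10 members, against 52.6% of all tested genes, and signs taken from the same 8 tumors are not independent. The count of members above 0 held with 3 other scalings and was 7 of 10 after a correction for gene length, when B2m and Psmb9 also lay below 0. It was 7 of 10 without saline tumor 2 or 4, and 5 of 10 without mAb-DXd/IMQ tumor 1. The median over the members was 0.27 and 0.07 without saline tumors 1 and 2, and 0.04 without mAb-DXd/IMQ tumor 1. With the length correction it was 0.06, against -0.04 over all tested genes. The count of 197 was itself unstable, at 111, 10 and 11 genes without saline tumors 2, 3 and 4, and 76, 88 and 12 genes without mAb-DXd/IMQ tumors 2, 3 and 4.

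**Figure D1:**
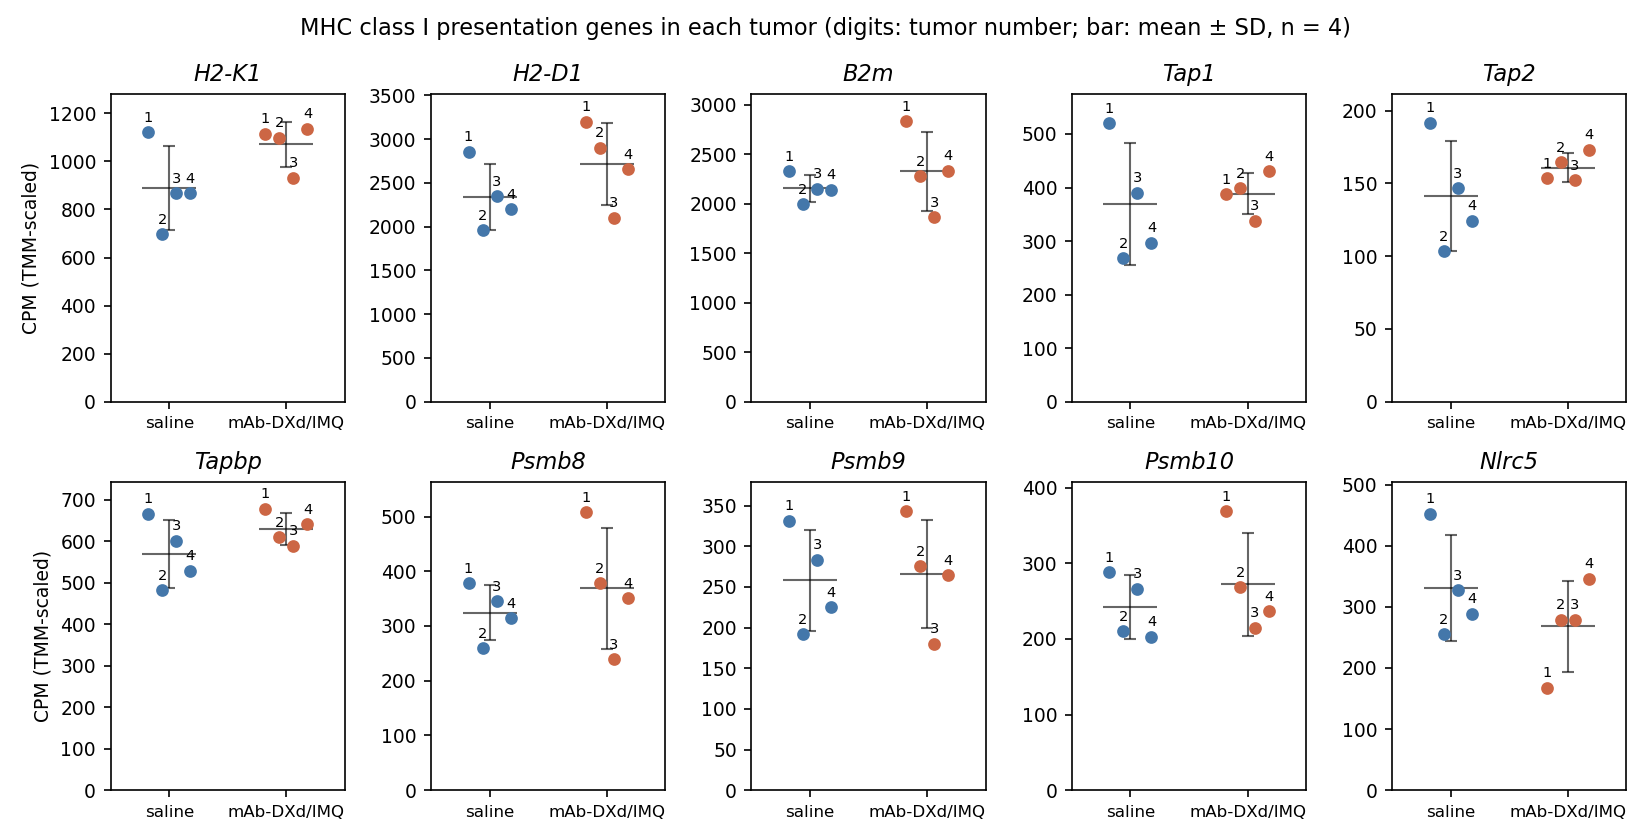
CPM of the 10 members in each tumor, with saline tumors in blue and mAb-DXd/IMQ tumors in orange, digits for the tumor number and bars for the mean ± SD (n = 4). The groups overlap in every panel, saline tumor 1 is the highest saline tumor throughout, and Nlrc5 is lowest in mAb-DXd/IMQ tumor 1 at 168 CPM.

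H2-K1 encodes a classical heavy chain, the part of the molecule that binds the peptide. It measured 1121, 697, 867.5 and 868 CPM in saline tumors 1 to 4, and 1115, 1099, 932 and 1137 CPM in mAb-DXd/IMQ tumors 1 to 4. Saline tumor 1 matched the treated tumors, and the other 3 saline tumors lay below all 4 of them. The fold change was 1.20, or 0.27 ± 0.16 on the log2 scale (SE, edgeR adjusted p = 0.391). H2-D1, the other classical heavy chain, measured 2857, 1961, 2346 and 2197 CPM in the saline tumors. In the treated tumors it measured 3200, 2904, 2104 and 2660 CPM. Treated tumors 3 and 4 lay within the saline range, and treated tumors 1 and 2 stood above it. The log2 fold change of H2-D1 was 0.22 ± 0.18 (SE, edgeR adjusted p = 0.553). It was 0.14 without saline tumor 2 and 0.12 without treated tumor 1, and that of H2-K1 was 0.17 without saline tumor 2.

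B2m encodes the light chain that every class I heavy chain needs to reach the surface. Its saline values were 2331, 1997, 2155 and 2142 CPM, and the ratio of the highest to the lowest, 1.17, was the smallest of any member. The treated values were 2836, 2279, 1865 and 2333 CPM, so that treated tumors held both the highest and the lowest value. The log2 fold change was 0.11 ± 0.16 (SE, edgeR adjusted p = 0.753), and it was -0.03 after the length correction. It was 0.07 without saline tumor 2, -0.0009 without treated tumor 1 and 0.20 without treated tumor 3. Counts per base were compared within each tumor as the ratio of heavy to light chain. The ratio of H2-K1 to B2m averaged 0.134 in saline tumors and 0.153 in treated tumors (geometric means, n = 4 each), and 3 treated tumors exceeded every saline tumor while treated tumor 1 did not (two-sided exact permutation test over 70 assignments, p = 0.229, adjusted over 2 ratios p = 0.229). For H2-D1 to B2m the means were 0.359 and 0.389, with 1 treated tumor above the saline range (exact permutation p = 0.2, adjusted p = 0.229). The log2 difference for H2-D1 to B2m was 0.12, and it was 0.18 and 0.07 without saline tumors 1 and 2, and 0.07 without treated tumor 2. For H2-K1 to B2m it was 0.19, and 0.11 without saline tumor 2.

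The upstream sequences of class I genes are known to hold a shared set of control elements, and those of H2-K1 and B2m are shown here as 1 example each of a heavy and a light chain gene that held one of the motifs searched for. RefSeq promoter windows on GRCm38.p6 were available for 8 of the 10 members, with none for Tap2 and Nlrc5, and they represent C57BL/6 and not BALB/c DNA. The 250 bases before each start were searched on both strands for the X2 box core TGACGC, the interferon-stimulated response element core GAAANNGAAA and the gamma-activated site TTCNNNGAA, which were present in 6.12%, 2.98% and 7.02% of 32851 windows of the same length. Capitals mark the matches. H2-K1 (chr17:34000348-34000597, minus strand) held the X2 box core, starting 41 bases before its start, and B2m (chr2:122147437-122147685, plus strand) held the response element core, starting 139 bases before its start.

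H2-K1: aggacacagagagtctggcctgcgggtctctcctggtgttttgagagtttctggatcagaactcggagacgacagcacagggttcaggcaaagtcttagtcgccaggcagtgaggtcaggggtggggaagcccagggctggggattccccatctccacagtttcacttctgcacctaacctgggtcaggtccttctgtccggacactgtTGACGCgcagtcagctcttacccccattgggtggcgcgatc

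B2m: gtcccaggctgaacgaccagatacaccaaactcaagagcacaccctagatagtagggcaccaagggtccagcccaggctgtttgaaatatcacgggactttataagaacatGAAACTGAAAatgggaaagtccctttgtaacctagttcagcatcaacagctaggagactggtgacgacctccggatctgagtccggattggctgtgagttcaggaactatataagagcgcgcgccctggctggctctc

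H2-D1 also held the X2 box core, and Psmb8 held the gamma-activated site. No match to the 3 motifs was found upstream of Tap1, Tapbp, Psmb9 or Psmb10, which says only that these letters were not in these windows. Tap1 and Psmb9 lie head to head with 225 bases between their RefSeq starts, and their gene models in the count table overlap on opposite strands. Whether the counting used strand was not stated, so reads near that shared end cannot be assigned with certainty.

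Tap1 and Tap2 encode both subunits of the peptide transporter. Tap1 measured 520, 268, 390 and 297 CPM in saline tumors 1 to 4, and 388, 398, 338 and 431 CPM in treated tumors 1 to 4. All 4 treated values lay inside the saline range, which spanned 1.94-fold against 1.27-fold in treated tumors. Tap2 repeated the pattern, with 192, 103, 147 and 124 CPM in saline tumors. Its treated values were 154, 165, 152 and 173 CPM, a 1.14-fold range inside the 1.86-fold range of the saline tumors. Saline tumor 1 was the highest and saline tumor 2 the lowest of all 8 tumors for both genes. The log2 fold changes were 0.08 ± 0.19 for Tap1 (SE, edgeR adjusted p = 0.874) and 0.19 ± 0.17 for Tap2 (SE, edgeR adjusted p = 0.592). For Tap1 the value was 0.28 and -0.05 without saline tumors 1 and 2, and for Tap2 it was 0.36 and 0.06.

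Tapbp encodes tapasin, which bridges the transporter and the empty heavy chain. Saline tumors had 666, 482, 601 and 529 CPM and treated tumors 678, 610, 589 and 641 CPM. The treated tumors were again close together, and only treated tumor 1 passed the highest saline tumor. The log2 fold change was 0.14 ± 0.13 (SE, edgeR adjusted p = 0.592), and it was 0.23 and 0.07 without saline tumors 1 and 2. Tapbp overlaps Zbtb22 on the same strand, whose counts came to 6.11% of those of Tapbp.

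Psmb8, Psmb9 and Psmb10 replace the constitutive catalytic subunits Psmb5, Psmb6 and Psmb7 when the immunoproteasome is assembled. Psmb8 measured 378, 259, 345 and 314 CPM in saline tumors, and 508, 379, 239 and 351 CPM in treated tumors. Treated tumors 1 and 3 held the highest and the lowest value of all 8. Psmb9 measured 331, 192, 284 and 225 CPM in saline tumors and 343, 276, 180 and 265 CPM in treated tumors, with the same 2 treated tumors at the ends. Psmb10 measured 288, 210.5, 266 and 203 CPM in saline tumors and 369, 269, 215 and 237 CPM in treated tumors. Its highest tumor was again treated tumor 1, while saline tumor 4 was the lowest. The log2 fold changes were 0.19 ± 0.21 for Psmb8 (SE, edgeR adjusted p = 0.670) and 0.04 ± 0.21 for Psmb9 (SE, edgeR adjusted p = 0.939). For Psmb10 it was 0.17 ± 0.18 (SE, edgeR adjusted p = 0.660). Without treated tumor 1 the 3 values were -0.01, -0.11 and -0.01, and without treated tumor 3 they were 0.35, 0.19 and 0.27. Without saline tumor 2 they were 0.09, -0.08 and 0.11.

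Because an immunoproteasome subunit takes the place of 1 constitutive subunit, the 3 pairs were also compared as ratios of counts per base within each tumor. Psmb10 exceeded Psmb7 by 7.15, 5.57, 6.51 and 4.92-fold in saline tumors 1 to 4, and by 7.25, 7.26, 7.54 and 7.66-fold in treated tumors 1 to 4. All 4 treated tumors stood above all 4 saline tumors, though treated tumor 1 passed saline tumor 1 only narrowly. The difference in the mean log2 ratio was 0.31 (saline 2.58 ± 0.24, treated 2.89 ± 0.04, SD, n = 4 each), with an exact permutation p = 0.0286, the smallest that 70 assignments allow. Adjusted over the 3 ratios, the exact permutation p was 0.0857 and did not pass 0.05. Leaving out 1 tumor cannot make separate groups overlap, so the exact p had little room to move and says little about stability. The unadjusted exact permutation p was 0.0286 without any 1 of the saline tumors (adjusted p = 0.0857). It was 0.0571 without any 1 of the treated tumors (adjusted p = 0.171), where the log2 difference stayed between 0.30 and 0.33. Without saline tumors 1 to 4 the difference was 0.40, 0.28, 0.36 and 0.22. On its own, Psmb7 had a log2 fold change of -0.12 (edgeR adjusted p = 0.737). The length correction was not applied to any ratio, although the paired genes differ in length.

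The other ratios lay on the opposite side. Psmb8 exceeded Psmb5 by 4.63, 3.01, 3.5 and 2.80-fold in saline tumors and by 3.19, 3.15, 2.39 and 2.90-fold in treated tumors. Saline tumors 1 and 3 stood above all treated tumors, and treated tumor 3 stood below all saline tumors. The difference in the mean log2 ratio was -0.24 (exact permutation p = 0.286, adjusted p = 0.343). Psmb9 to Psmb6 was 1.54, 0.905, 1.22 and 0.936 in saline tumors and 0.924, 1.10, 0.911 and 0.954 in treated tumors, with a difference of -0.21 on the log2 scale (exact permutation p = 0.343, adjusted p = 0.343). Saline tumors 1 and 3 lay above all treated tumors for this ratio, and the other 2 lay among or below them. Without saline tumor 1 the differences were -0.10 for Psmb8 to Psmb5 and -0.06 for Psmb9 to Psmb6, and without treated tumor 3 the former was -0.15.

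**Figure D2:**
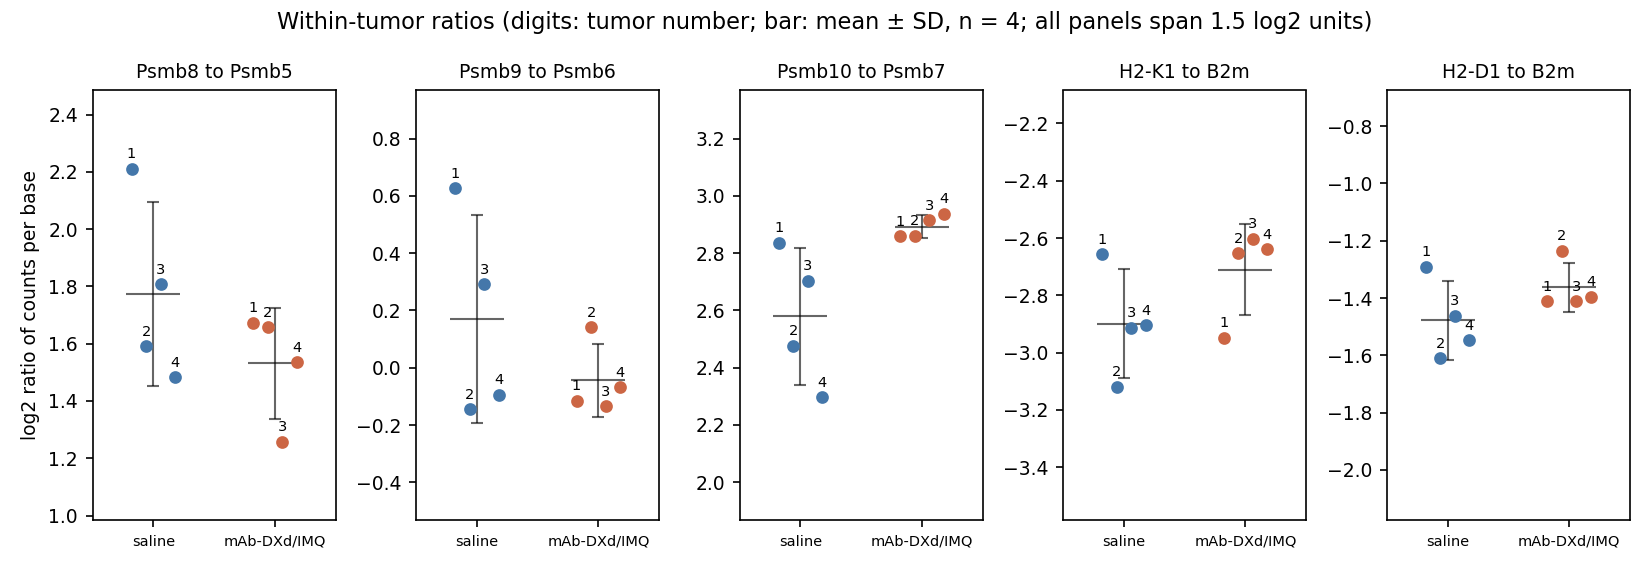
Log2 ratio of counts per base in each tumor for the 3 proteasome subunit pairs and the 2 pairs of heavy and light chain, with digits for the tumor number and bars for the mean ± SD (n = 4). The groups separate only for Psmb10 to Psmb7, where treated tumors cluster at 2.89 ± 0.04 and saline tumors spread around 2.58 ± 0.24.

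Nlrc5 encodes the transactivator of class I genes, and it was the only member whose log2 fold change was below 0. It measured 453, 255, 327 and 289 CPM in saline tumors 1 to 4, and 168, 279, 279 and 346 CPM in treated tumors 1 to 4. Treated tumors 2 to 4 lay within the saline range and treated tumor 1 lay below it. The log2 fold change was -0.30 ± 0.23 (SE, edgeR adjusted p = 0.504), and it was -0.14 without treated tumor 1 and -0.12 without saline tumor 1. In treated tumor 1, where Nlrc5 was lowest, 6 other members had their highest value of all 8 tumors: H2-D1, B2m, Tapbp, Psmb8, Psmb9 and Psmb10. Nlrc5 is the longest gene model of the 10 at 8493 bases, and over all tested genes the log2 fold change ran against gene length (Spearman rho = -0.212 across genes, which are not independent replicates). The length correction brought rho to -0.0365. It left Nlrc5 at -0.29, whereas H2-K1 was at 0.16, H2-D1 at 0.11, Tap1 at 0.06, Tap2 at 0.11, Tapbp at 0.06, Psmb8 at 0.10 and Psmb10 at 0.05. An antisense gene, 9330175E14Rik, overlaps Nlrc5 with 8.31% of its counts.

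**Figure D3:**
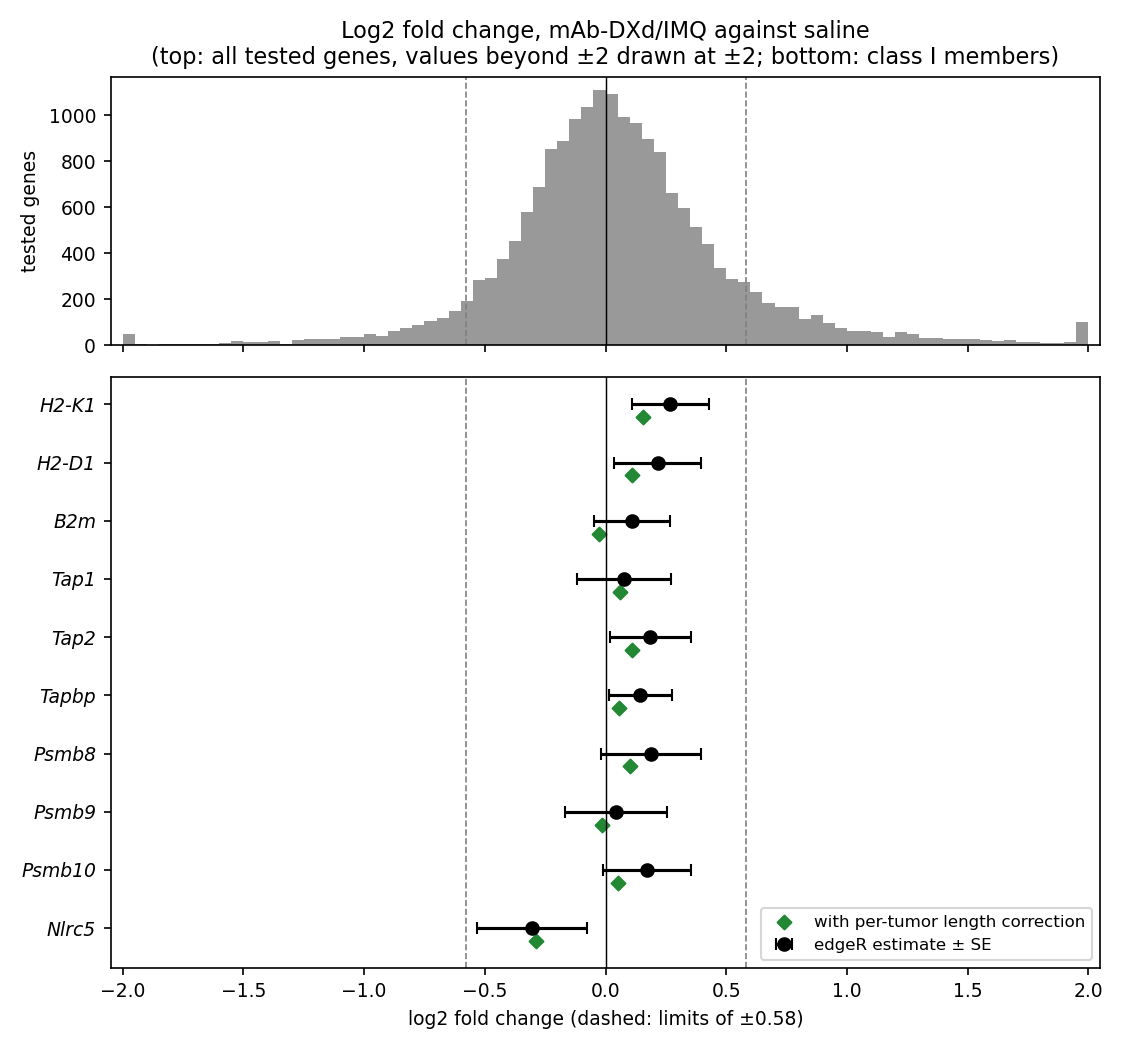
Log2 fold change of mAb-DXd/IMQ against saline tumors for all 18511 tested genes (histogram, values beyond 2 in either direction drawn at the edge) and for the 10 members (edgeR estimate ± SE, with green diamonds for the estimate after length correction). The members lie between -0.30 and 0.27, inside the dashed limits at 0.58 in both directions.

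Per kilobase of gene model, and pooled over all 8 tumors, B2m stood highest at 2607 ± 337 CPM per kilobase (SD, n = 8). H2-D1 followed at 980 ± 171 and H2-K1 at 375.5 ± 62.2 CPM per kilobase. The light chain thus exceeded the sum of H2-D1 and H2-K1 as counted. BALB/c mice carry a further classical heavy chain gene, H2-L, that is not in the table, and where its reads were counted is not known. Tapbp had 182 ± 20.3, Psmb10 151 ± 32.1 and Psmb8 127 ± 30.4 CPM per kilobase, and neighbors in this order differed by less than the larger SD. Psmb9 (71.6 ± 16.3 CPM per kilobase) and Tap1 (69.2 ± 14.4 CPM per kilobase) did not differ beyond their spread. At the lower end, Tap2 (39.98 ± 7.30 CPM per kilobase) and Nlrc5 (35.3 ± 9.62 CPM per kilobase) did not either. In saline tumors their order was reversed, with Tap2 at 37.4 ± 10.01 and Nlrc5 at 39.0 ± 10.2 CPM per kilobase (SD, n = 4). In treated tumors Tap2 stood at 42.5 ± 2.60 and Nlrc5 at 31.6 ± 8.71 CPM per kilobase (SD, n = 4), the pooled order with a gap larger than either SD.

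The members did not vary alike within the groups. Tap2, Tap1, Tapbp and H2-K1 spread more among saline tumors, with an SD of log2 CPM 4.32, 2.95, 2.32 and 2.12 times that among treated tumors. The other 6 members had the larger SD among treated tumors, and B2m stood at the far end with 0.09 in saline and 0.25 in treated tumors. Among all tested genes 36.0% had the larger SD in saline, and among the 2294 tested genes with a mean of at least 100 CPM, to which all members belong, 22.9% did, against 4 of 10 members. That set was chosen after seeing the data. This count was 7 of 10 without treated tumor 1, and 6 of 10 with library totals only or without saline tumor 3, saline tumor 4 or treated tumor 3. No test was made of these SDs, which rest on 4 tumors each.

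**Figure D4:**
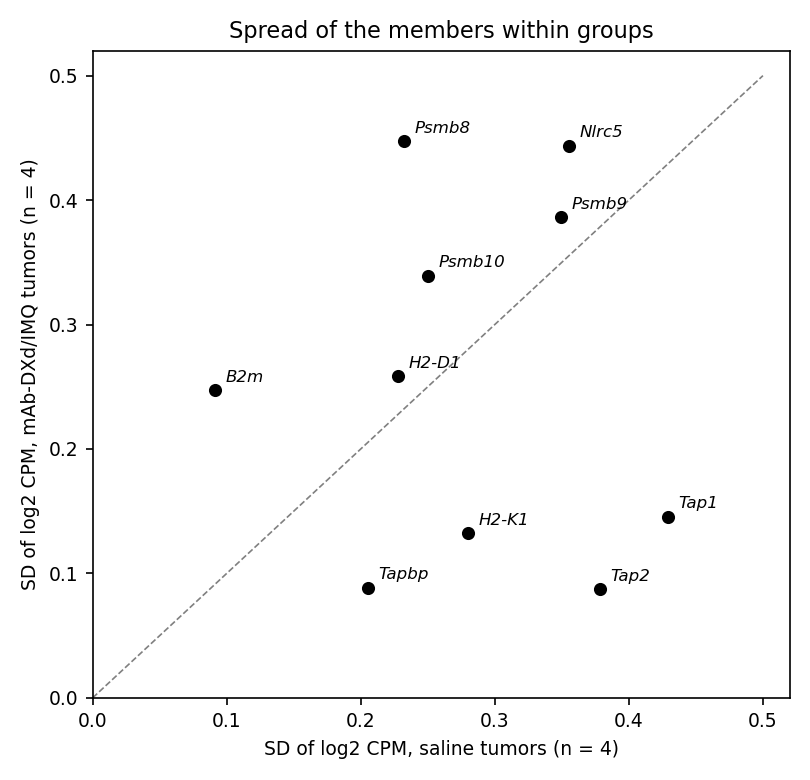
SD of log2 CPM of each member among saline tumors (horizontal) and among mAb-DXd/IMQ tumors (vertical), n = 4 each, with a dashed line of equality. Tap1, Tap2, Tapbp and H2-K1 lie below the line, and the immunoproteasome subunits, B2m, H2-D1 and Nlrc5 lie above it.

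The tumors at the ends of each group were often the same ones. Saline tumor 1 was the highest saline tumor for all 10 members, and saline tumor 2 was the lowest for 9 of 10, with Psmb10 as the exception. Among treated tumors, tumor 3 was the lowest for 9 of 10, and tumor 1 was the highest for 6 and tumor 4 for the other 4. The order in between differed among members, and treated tumor 1 was the lowest for Nlrc5. Marker lists differed between the same tumors. The 9 genes of the macrophage and monocyte list, led by Lyz2 and all detected, summed to 1048, 5979, 2581 and 3201 CPM in saline tumors 1 to 4. In treated tumors 1 to 4 they summed to 3325, 2373, 3080 and 2274 CPM. Saline tumor 1, the highest saline tumor for the members, was thus the lowest of all 8 for this list, and saline tumor 2 was the highest. The treated tumors did not show this reversal, since treated tumor 1, highest among them for 6 members, was also highest among them for this list. The 7 genes of the 4T1 epithelium list, led by Krt18, summed to 2901, 2150, 2944 and 2687 CPM in saline tumors and 4186, 3253, 2443 and 2497 CPM in treated tumors, where tumor 1 was highest. All 7 epithelium genes had log2 fold changes above 0, as did 52.6% of all tested genes, and their median was 0.25. All 9 macrophage and monocyte genes lay below 0, as did 8768 of all 18511 tested genes, and their median was -0.44. No gene of either list passed. The part of cell composition in the members' values was not tested.

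**Figure D5:**
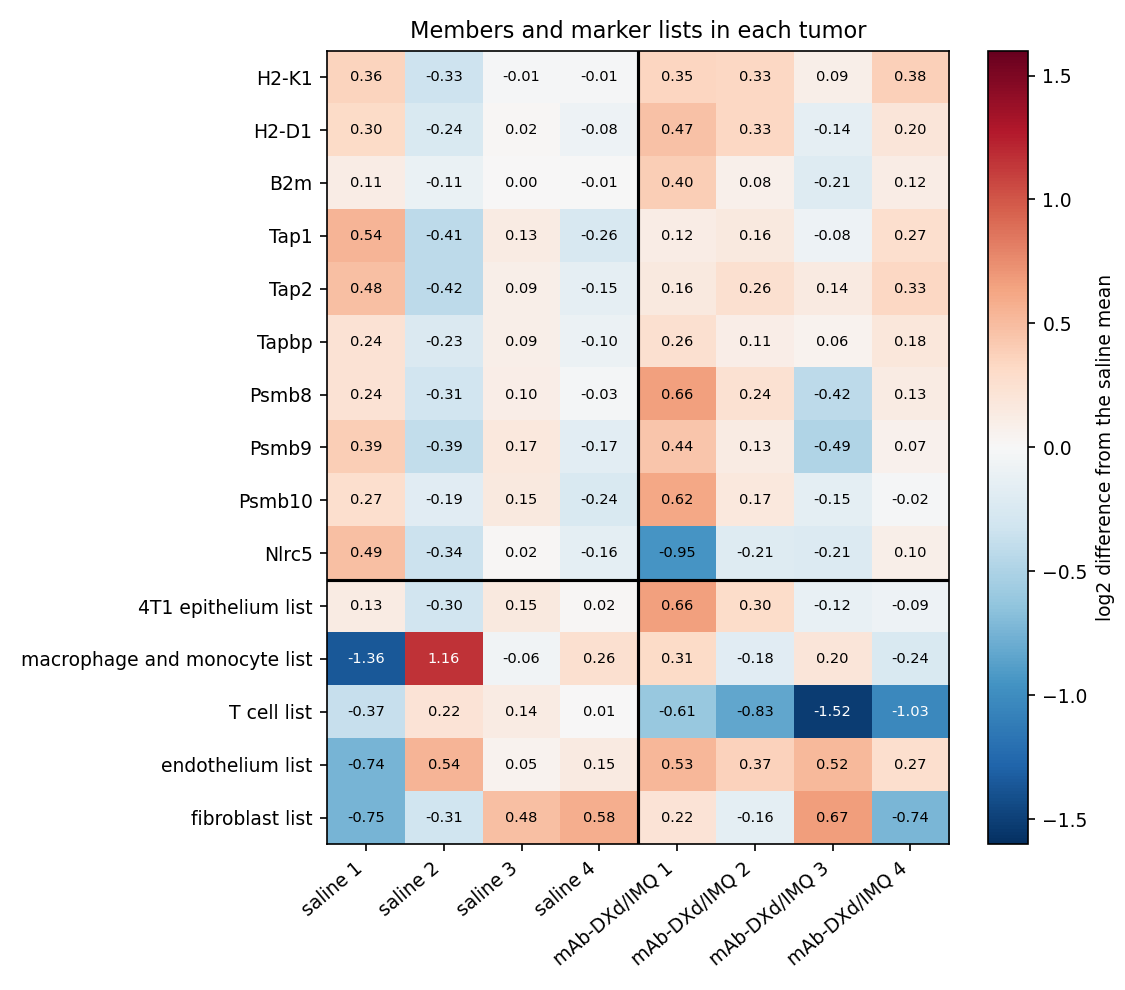
Log2 difference of each tumor from the saline mean for the 10 members (above the line, log2 CPM) and for 5 marker lists (below the line, log2 of summed CPM), in saline tumors (left) and mAb-DXd/IMQ tumors (right). Saline tumor 1 is red and saline tumor 2 blue for every member, the macrophage list shows the reverse, and the T cell list is lower in all 4 treated tumors.

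Class I molecules are read by CD8 T cells, and the T cell list of 10 genes, all tested and all detected, summed to 84.4, 127, 120 and 110 CPM in saline tumors 1 to 4. It summed to 71.4, 61.2, 37.9 and 53.5 CPM in treated tumors 1 to 4, so every treated tumor lay below every saline tumor. In this list 2 of 10 genes passed, both lower, against 0.519% of all tested genes that passed as lower, and they are named here after their values were seen. Cd8a, the most abundant gene of the list, lay between 28.2 and 38.5 CPM in saline and between 11.1 and 18.8 CPM in treated tumors (log2 fold change -1.22 ± 0.17, SE, edgeR adjusted p = 0.0201). Cd4 had a log2 fold change of -1.91 ± 0.25 (SE, edgeR adjusted p = 0.0201). Neither passed without saline tumor 3, saline tumor 4 or mAb-DXd/IMQ tumor 4, with edgeR adjusted p = 0.0657, 0.0846 and 0.0694.

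The class II genes present peptides to CD4 T cells and offered a comparison within the same tumors. Of 11 genes, 1 passed and it was lower, against 0.519% of all tested genes: Ciita, the transactivator of class II genes and a relative of Nlrc5. Ciita measured 135, 110, 124 and 93.8 CPM in saline tumors and 51.9, 64.6, 62.6 and 61.6 CPM in treated tumors. The groups did not overlap, and the log2 fold change was -0.94 ± 0.13 (SE, edgeR adjusted p = 0.0201). It did not pass without saline tumor 3 or mAb-DXd/IMQ tumor 4 (edgeR adjusted p = 0.0657 and 0.0694). The median log2 fold change over the class II list was -0.42, and 10 of 11 values were below 0, as were 8768 of all 18511. Whether class I and class II genes differed in response was not tested.

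No gene passed the thresholds in any of the 8 lists of related class I genes. Among class Ib and other H2 heavy chains, 18 of 20 listed symbols were in the table, 16 were tested, and the median log2 fold change was 0.11. H2-M2 and H2-T24 had the lowest p. H2-T24 averaged 38.3 ± 17.3 CPM in saline and 58.7 ± 7.64 CPM in treated tumors (SD, n = 4), and H2-M2 averaged 1.63 ± 0.777 and 0.841 ± 0.353 CPM (SD, n = 4). Their log2 fold changes were 0.61 ± 0.29 and -0.96 ± 0.45 (SE, edgeR adjusted p = 0.279 and 0.275). H2-T24 was lowest in saline tumor 2 at 16.7 CPM, and its value was 0.36 without that tumor. Class I-like genes outside the H2 region had a median log2 fold change of -0.12 over 6 tested genes. Procr, the endothelial protein C receptor, averaged 16.5 CPM in saline and 21.5 CPM in treated tumors without overlap (log2 fold change 0.38 ± 0.13, SE, edgeR adjusted p = 0.140), and its value was 0.25 with the length correction. Fcgrt, the neonatal Fc receptor that recycles antibodies, was at 127 CPM in saline tumor 2 and between 32.4 and 56.4 CPM in the other 7 tumors (log2 fold change -0.62 ± 0.32, SE, edgeR adjusted p = 0.333). Without saline tumor 2 the log2 fold change of Fcgrt was -0.12.

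The helpers of peptide loading had a median log2 fold change of 0.16 over 10 genes, and 9 of 10 values were above 0, against 52.6% of all tested genes. Hspa5, the main chaperone of the endoplasmic reticulum, measured 1441, 1072, 1307 and 1324 CPM in saline tumors and 2311, 1717, 1580 and 1690 CPM in treated tumors. Every treated tumor stood above every saline tumor, but the edgeR adjusted p was 0.131 at a log2 fold change of 0.50 ± 0.16 (SE). DESeq2 gave Hspa5 an adjusted p of 0.0277, with a log2 fold change still inside the limit of 0.58. DESeq2 passed 787 genes in all, against 197 in edgeR. After the length correction the edgeR adjusted p of Hspa5 was 0.307. Pdia3, the disulfide isomerase of the peptide-loading complex, lay between 624 and 666 CPM in saline and between 720.5 and 1068 CPM in treated tumors (log2 fold change 0.39 ± 0.14, SE, edgeR adjusted p = 0.177). Without treated tumor 1 the value of Pdia3 was 0.25. In this list 4 of 10 genes had groups that did not overlap, against 13.1% of all tested genes.

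Among proteasome genes outside the members, the activators and assembly factors had a median of 0.11 over 9 genes, the constitutive catalytic subunits 0.29 over 3 genes, and the other 20S core subunits 0.00 over 11 genes, against 0.02 over all tested genes. Psmg3, an assembly chaperone, measured 6.12, 6.77, 6.77 and 5.88 CPM in saline tumors and 10.9, 8.63, 9.68 and 10.4 CPM in treated tumors. It had a log2 fold change of 0.63 ± 0.16 and missed the threshold in edgeR (SE, edgeR adjusted p = 0.0706), while DESeq2 gave an adjusted p of 0.00222. After the length correction its log2 fold change was 0.53 (edgeR adjusted p = 0.208). Psmg1, another assembly chaperone, had a log2 fold change of 0.47 ± 0.16 (SE, edgeR adjusted p = 0.144). The values were 0.40 ± 0.16 for Psmb5 and 0.29 ± 0.17 for Psmb6 (SE, edgeR adjusted p = 0.197 and 0.382). Psmb3 and Psma3 had 0.28 ± 0.14 and -0.24 ± 0.13 (SE, edgeR adjusted p = 0.302 and 0.343). Without treated tumor 1 the values of Psmb5, Psmb6 and Psmb3 were 0.26, 0.10 and 0.13, and with the length correction they were 0.27, 0.17 and 0.17.

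Of the factors that act at class I promoters, 14 of 16 had log2 fold changes below 0, as did 8768 of all 18511 tested genes, and the median of the list was -0.21. In 6 of these factors (37.5%) no treated value reached the saline range, against a share without overlap of 13.1% of all tested genes, and no test of the list as a group was made. Irf2, an interferon regulatory factor, measured 90.6, 84.7, 78.9 and 75.8 CPM in saline tumors and 62.6, 59.1, 53.6 and 57.3 CPM in treated tumors. The groups did not overlap, and Irf2 met the FDR limit (edgeR adjusted p = 0.0427), but its log2 fold change of -0.50 ± 0.10 (SE) was inside the limit of 0.58. Of the 8 fits without 1 tumor, only the one without treated tumor 1 kept Irf2 below the FDR limit, and the edgeR adjusted p was 0.165 after the length correction, with a log2 fold change of -0.47. Creb1 measured 90.7, 98.4, 102 and 95.3 CPM in saline tumors and 69.2, 70.3, 82.2 and 70.6 CPM in treated tumors (log2 fold change -0.40 ± 0.10, SE, edgeR adjusted p = 0.0662, DESeq2 adjusted p = 0.00711). After the length correction its log2 fold change was -0.32 (edgeR adjusted p = 0.223). Creb1 belongs to the family of factors that bind the X2 box. Interferon ligand and receptor genes had a median of -0.20 over 8 tested genes, with Ifnb1 below the filter at 63 counts in all. Ifng, which encodes interferon gamma, averaged 2.31 ± 0.696 CPM in saline and 1.14 ± 0.356 CPM in treated tumors (SD, n = 4) without overlap (log2 fold change -1.02 ± 0.34, SE, edgeR adjusted p = 0.145). Tyk2, a kinase of the interferon receptors, had a log2 fold change of -0.44 ± 0.12 (SE, edgeR adjusted p = 0.0824, DESeq2 adjusted p = 0.0235). After the length correction the edgeR adjusted p of Tyk2 was 0.149.

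Likeness to the members was measured within groups, as the correlation over 8 tumors between a gene and the mean of the 10 members, both as deviations from their group mean. Among 10749 other tested genes with a mean of at least 8 CPM, the 5 most alike were Gbp2 (r = 0.996), Gbp2b (r = 0.996), A530040E14Rik (r = 0.990), H2-T22 (r = 0.989) and H2-T10 (r = 0.984). Gbp2 and Gbp2b encode guanylate-binding proteins, which interferon gamma is known to raise, and H2-T22 and H2-T10 are class Ib heavy chains. Gbp2 measured 667, 242, 417 and 327 CPM in saline tumors and 376, 326, 204 and 313 CPM in treated tumors, highest in saline tumor 1 and lowest in treated tumor 3. The log2 fold changes of the 5 genes ran from -0.46 for Gbp2b to 0.15 for H2-T22, and none passed. Both pairs are close relatives whose reads may be shared. These r values are descriptions and carry no p, since the genes were picked as the highest of many.

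Windows upstream were available for 4 of these 5 genes. Of the 4, 3 held the interferon-stimulated response element core, against 2.98% of all windows: Gbp2, Gbp2b and H2-T22. Gbp2 and Gbp2b are close relatives, so their matches may not be independent. The windows of Gbp2b (chr3:142594597-142594846, plus strand) and H2-T22 (chr17:36042748-36042960, minus strand) are shown for comparison with B2m. Capitals mark the match, which in both lies on the strand opposite to the gene. Only bases outside annotated exons are printed.

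Gbp2b: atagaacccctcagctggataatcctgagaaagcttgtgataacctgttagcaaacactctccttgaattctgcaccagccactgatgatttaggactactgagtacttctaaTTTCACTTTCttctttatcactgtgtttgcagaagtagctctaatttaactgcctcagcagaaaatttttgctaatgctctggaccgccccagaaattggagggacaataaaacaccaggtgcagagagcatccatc

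H2-T22: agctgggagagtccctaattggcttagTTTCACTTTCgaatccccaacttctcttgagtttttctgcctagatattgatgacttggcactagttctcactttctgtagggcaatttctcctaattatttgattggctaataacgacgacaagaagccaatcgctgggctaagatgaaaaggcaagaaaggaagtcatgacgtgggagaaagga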

How the data were processed

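RNA from 8 whole tumors was sequenced as poly-A libraries on an Illumina HiSeq X instrument, and the values the authors deposited are unscaled counts of reads for each mouse gene. Their notes name HISAT2, HISAT, TopHat2 and the build mm39 without roles, and give no counting program, annotation or strand setting, while the gene coordinates in the table match GRCm38 (98.3% of 54409 shared genes have the same start and end in GENCODE M21).

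Genes were filtered with filterByExpr (at least 10 counts, total of at least 15), scaled with TMM and tested with edgeR's quasi-likelihood F-test (glmQLFit with legacy = TRUE, design of 2 groups, no covariate), with Benjamini-Hochberg adjustment over 18511 tested genes. A gene passed at FDR below 0.05 and absolute log2 fold change above 0.58. SEs of log2 fold changes are approximate, derived from the F statistic. CPM use TMM-scaled totals, and log2 CPM add a prior count of 2. Total counts per tumor, printed in the report, ranged from 34591912 to 69582375, so 3 counts correspond to 0.0431 to 0.0867 CPM. The common biological coefficient of variation was 0.273. Ratios used CPM per base of the gene length in the table, with an exact permutation test over 70 assignments. Alternatives were other scalings, filters, DESeq2, limma-voom, newer quasi-likelihood, a replicate block, correction for gene length, no fold limit, and leaving out each tumor. Correction for length and GC together was chosen after seeing the data, as was the set of genes with at least 100 CPM used for comparing spread.

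All members are named. From each list of related genes, those past the thresholds are named, or otherwise the 2 tested genes with the lowest p, as are the 5 genes most alike to the members. The members, the gene lists and 13 marker lists were chosen with earlier results of these data known. The promoter windows were chosen after the values were seen. No sample was left out. The pipeline was tested on simulated data. Tools were DESeq2 1.42.0, limma 3.58.1 and edgeR 4.0.16 in R 4.3.3, and matplotlib 3.10.9, pandas 2.3.3 and numpy 2.4.6 in Python 3.11.15.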

Additional observations from a re-analysis of the deposited data

Results flagged for a closer look

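A test for 1 value far from the other 3 of its group (Dixon ratio above its critical value at the 0.05 level) was run on 100 groups of 4 tumors, of which 5 passed, and chance alone passes about 1 in 20 such groups. H2-K1 was lowest in mAb-DXd/IMQ tumor 3, far from the other treated tumors, at a log2 CPM of 9.864 against 10.123, 10.102 and 10.150 (ratio 0.831). Creb1 was highest in mAb-DXd/IMQ tumor 3, apart from the rest of the group, at a log2 CPM of 6.361 against 6.113, 6.135 and 6.142 (ratio 0.882). The log2 ratio of H2-K1 to B2m was lowest in mAb-DXd/IMQ tumor 1, at -2.947 against -2.653, -2.602 and -2.638 (ratio 0.854). The log2 ratio of H2-D1 to B2m was highest in mAb-DXd/IMQ tumor 2, at -1.234 against -1.410, -1.411 and -1.396 (ratio 0.915). The log2 of the summed CPM of the dendritic cell markers was highest in mAb-DXd/IMQ tumor 3, at 7.249 against 6.421, 6.451 and 6.496 (ratio 0.909).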

How the results depend on the processing

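No member passed the thresholds under any of 20 alternatives, and 179 of 190 alternative member log2 fold changes kept their direction. The lowest adjusted p of any member was 0.185 in edgeR, without saline tumor 1. The other 11 reversed, with the lowest at -0.106. B2m was -0.028 with the length correction and ranged from -0.0009 to 0.203 without 1 tumor. Psmb9 was -0.0139 with the length correction and -0.0261 with length and GC together, chosen after seeing the data, and ranged from -0.106 to 0.191 without 1 tumor. The ranges without 1 tumor were -0.0519 to 0.285 for Tap1, -0.0081 to 0.348 for Psmb8 and -0.0133 to 0.268 for Psmb10. Over all alternatives, members that kept their sign ranged from 0.146 to 0.398 for H2-K1, 0.0918 to 0.323 for H2-D1, 0.0588 to 0.364 for Tap2, 0.0346 to 0.226 for Tapbp and -0.446 to -0.119 for Nlrc5. The cause was not tested.

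The count of 197 genes past the thresholds was 358 with no filter, 787 with DESeq2, 92 with the length correction and 91 with length and GC together. It ranged from 10 to 203 without 1 tumor. It was 203 with RLE factors, 218 with upper quartile scaling (145 higher, 73 lower), 194 with totals only, 233 with a filter of 1 CPM, 174 with limma-voom, 291 with newer quasi-likelihood and 246 with no fold limit. With the replicate number as a block it was 14. Tumors with the same number share no more than it: their deviations correlated at r = -0.170, -0.0546, 0.0794 and -0.0672. The calls of Ciita, Cd4, Cd8a, Csf3r and Igkc were lost in that block fit, with edgeR adjusted p = 0.0815, 0.0695, 0.0815, 0.117 and 0.105, and Irf2 had 0.108. Psmg3 passed only in DESeq2. The number of members with the larger SD in saline ranged from 4 to 7 without 1 tumor and was 6 with totals only. All 50 alternatives for the 5 ratios kept their direction, but none of them applied the length correction to a ratio. Paired genes differ in length, with Psmb10 at 1705 and Psmb7 at 3421 bases. Whether the ratios depend on that correction was not tested. The side of 0.05 on which a ratio fell after adjustment says little, since the smallest exact p gives 0.0857 for 1 ratio of 3.

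With 4 tumors per group, 0 members past the thresholds does not show that the members were equal, and the smallest exact p was 0.0286. Whether depth limited any call was not tested.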

Other observations

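Other cell type lists also differed between tumors. In the neutrophil list 1 of 6 tested genes passed, as lower, against 0.519% of all tested genes: Csf3r, named after its values were seen, lay between 30.1 and 41.5 CPM in saline tumors and between 14.996 and 22.9 CPM in mAb-DXd/IMQ tumors (log2 fold change -0.80 ± 0.16, SE, edgeR adjusted p = 0.0402). The list, led by S100a9, summed to 227, 86.1, 93.3 and 127 CPM in saline tumors and 34.8, 49.98, 53.2 and 70.3 CPM in treated tumors. Of its tested genes only Mmp8 lay the other way, at a log2 fold change of 0.32 (edgeR adjusted p = 0.755). Of the 8 fits without 1 tumor, the call of Csf3r held in that without treated tumor 1. Without saline tumors 1 to 4 the edgeR adjusted p was 0.0625, 0.0715, 0.0754 and 0.134, and without treated tumors 2 to 4 it was 0.0749, 0.0587 and 0.0935. The call was also lost with upper quartile scaling (edgeR adjusted p = 0.0501) and totals only (edgeR adjusted p = 0.0601).

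Among B cell and plasma cell genes 1 of 6 tested genes passed, as lower, against 0.519% of all tested genes: Igkc, also named after its values were seen. Of the 6 tested genes only Pax5 lay the other way, without overlap, at means of 0.149 CPM in saline and 0.742 CPM in treated tumors. Its log2 fold change was 2.25 ± 0.74 (SE, edgeR adjusted p = 0.136). Cd79a and Ighm were at -0.12 and -0.25 (edgeR adjusted p = 0.923 and 0.820). Igkc measured 3.37, 23.9, 3.48 and 128 CPM in saline tumors and 0.495, 1.28, 1.03 and 0.956 CPM in treated tumors, so that saline tumor 4 held most of it (log2 fold change -5.40 ± 1.14, SE, edgeR adjusted p = 0.0489). The value was -3.44 without saline tumor 4. Its call was lost in limma-voom (adjusted p = 0.281), and in edgeR with totals only (adjusted p = 0.0523) and with the length correction (adjusted p = 0.0603). Of the 8 fits without 1 tumor, it held only in that without saline tumor 1. Without saline tumors 2 to 4 the edgeR adjusted p was 0.0662, 0.0681 and 0.107, and without treated tumors 1 to 4 it was 0.0860, 0.0958, 0.0912 and 0.132.

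No gene passed in the other lists not described above. Their median log2 fold changes were -0.21 for pan-leukocyte genes, 0.45 for NK cells, -0.88 for dendritic cells, 0.43 for endothelium, -0.06 for fibroblasts, 1.18 for epidermis, -0.38 for skeletal muscle and -0.63 for adipocytes. Epidermis genes summed to 211, 32.4, 147 and 98.6 CPM in saline tumors and 215, 522, 223 and 100 CPM in treated tumors. Among them, Krt5 was at 112 CPM in treated tumor 2 and between 0.206 and 1.05 CPM in the other treated tumors. Endothelium genes summed to 89.5, 218, 155 and 166 CPM in saline tumors and 216, 193, 215 and 180 CPM in treated tumors. The dendritic cell list summed to 106 ± 12.8 CPM in saline and 104 ± 32.2 CPM in treated tumors (SD, n = 4), and its most abundant gene, Itgax, had a log2 fold change of 0.20 (edgeR adjusted p = 0.665). The NK cell list, of which 6 of 7 genes were tested and Klra8 had no count, summed to 55.4, 35.9, 41.2 and 41.8 CPM in saline tumors and 61.3, 61.4, 58.2 and 72.1 CPM in treated tumors. No NK gene passed, and NK cells are the lymphocytes that respond to cells without class I molecules. The sums in treated tumors were all above those in saline tumors, but the most abundant gene, Prf1, made up much of them, at 32.9, 12.8, 14.9 and 13.4 CPM in saline tumors and 35.5, 34.1, 32.1 and 40.9 CPM in treated tumors. Eomes and Ncr1 had log2 fold changes of 0.89 ± 0.25 and 0.64 ± 0.30 (SE, edgeR adjusted p = 0.0885 and 0.287), and Eomes had groups without overlap. Of the 6 tested genes only Nkg7 lay the other way, between 13.6 and 16.5 CPM in saline and between 9.33 and 12.9 CPM in treated tumors (log2 fold change -0.33 ± 0.15, SE, edgeR adjusted p = 0.279). Prf1, Eomes, Ncr1 and Nkg7 are named after their values were seen. The part of these cell types in the values of the class I members was not tested.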
